A study of Mus musculus with 2 samples.

Results

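Sprr1a, Gap43, Cck, Tubb3, Nrn1 and Tnfrsf12a, 6 genes that are best known from nerve cells and from injured tissue, were followed in heart sections of a mouse model with inducible TOP2B in cardiomyocytes. They were found by symbol among the 19465 genes of the deposited tables, and all 6 were present. They had been chosen by their high counts in the transgenic section or because they led spatial groups there, so their levels, their spot shares, their Moran's I and their co-location with Nppa, Myh7 and Col1a1 are given as a description without a test.

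A single heart section per group was analysed, 1 from a control mouse of genotype α-MHC-MerCreMer+/− and 1 from a TOP2B mouse of genotype α-MHC-MerCreMer+/−TOP2B LSL/−, and both mice had received 80 mg/kg of tamoxifen in 1 intraperitoneal injection, which the study's methods place at 6 weeks of age for this dose. Both groups carry the tamoxifen-dependent Cre under the cardiomyocyte promoter α-MHC, and only the transgenic group carries the human TOP2B cDNA, placed at Rosa26 behind a floxed stop cassette and a CAG promoter. The time from tamoxifen to collection of these 2 hearts was not given in the sources used here. With 1 section per group there was no replicate check and no test between groups.

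Transcripts were counted as unique molecular identifiers (UMIs) on a Visium CytAssist array, whose spots each cover a small region that can hold several cells of different types. Tissue lay under 1256 control and 924 transgenic spots, which gave 14376300 and 12953389 UMIs, at medians of 11336 and 14531 per spot. Levels are UMIs summed over a section in CPM (counts per 10000 UMIs times 100), so that 3 UMIs stand for 0.209 CPM of the control or 0.232 CPM of the transgenic total, and brackets hold 95% intervals that cover counting error only. Cardiomyocyte markers accounted for 8.20% of control and 4.38% of transgenic UMIs, with at least 14262 UMIs for each of the 9 markers in each section. All 8 erythroid markers had a log2 ratio of transgenic over control of at least 1, as 13.7% of genes with at least 20 UMIs did. They summed to 2225 CPM in control and 20780 CPM in transgenic tissue, and their part in the results was not tested. Mouse Top2b was at 1531 control and 1318 transgenic UMIs, a log2 ratio of -0.07, and whether its probes read the human cDNA was not given in the sources used here. A lower level of a gene in a section can come from fewer cells that make it or from less RNA per cell, and these cannot be told apart in spots.

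Sprr1a encodes a small proline-rich protein of the cornified envelope of skin, and it is also made by injured sensory neurons and stressed cardiomyocytes. Gap43 and Nrn1 encode membrane proteins of growing axons, Tubb3 the β-tubulin used as a neuron marker, and Cck a peptide hormone of gut and brain. Tnfrsf12a encodes Fn14, the receptor for the cytokine TWEAK, which many injured tissues make. None of these names says that nerve tissue is present, so nerve markers were read beside them.

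Of the 6 genes, 5 were higher in the transgenic section and Nrn1 was lower, so "induced" did not describe Nrn1. Over the 15236 genes with at least 20 UMIs in both sections together, 63.2% had a log2 ratio of transgenic over control above 0. A log2 ratio of at least 1 was seen for 5 of the 6 and for 13.7% of all genes, one of at least 3 for 4 of the 6 and for 1.12%, and one of at most -1 for none of the 6 and for 5.61%. The choice of genes had already used this contrast. The median log2 ratio over those 15236 genes was 0.20.

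Sprr1a had 10 UMIs in the control and 1552 in the transgenic section, which equals 0.696 CPM (0.334 to 1.28) and 119.8 CPM (113.9 to 125.9). Its log2 ratio was 7.43 (6.55 to 8.49). Among the 8021 genes that reached 200 UMIs in at least 1 section, with a count of 0 set to 3, this was rank 2, after Myh7. Sprr1a was thus close to uncounted in control tissue, where no spot held more than 1 UMI of it.

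Cck had 3 UMIs in the control and 311 in the transgenic section, or 0.209 CPM (0.0430 to 0.610) and 24.0 CPM (21.4 to 26.8). Its log2 ratio of 6.85 (5.29 to 9.13) had rank 4, and the wide interval reflects the 3 control UMIs. Tubb3 counted 28 control and 668 transgenic UMIs, that is 1.95 CPM (1.29 to 2.81) against 51.6 CPM (47.7 to 55.6), and its log2 ratio was 4.73 (4.18 to 5.33). Gap43 counted 20 control and 262 transgenic UMIs, that is 1.39 CPM (0.850 to 2.15) against 20.2 CPM (17.9 to 22.8), and its log2 ratio was 3.86 (3.21 to 4.60). These 3 genes shared with Sprr1a a control level of at most 28 UMIs in the whole section.

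Tnfrsf12a differed from them in its starting level. It had 363 UMIs in the control and 2454 in the transgenic section, or 25.2 CPM (22.7 to 28.0) and 189.4 CPM (182.0 to 197.1), and a log2 ratio of 2.91 (2.75 to 3.07). Nrn1 counted 325 control and 214 transgenic UMIs, that is 22.6 CPM (20.2 to 25.2) against 16.5 CPM (14.4 to 18.9), and its log2 ratio was -0.45 (-0.71 to -0.20). The interval of Nrn1 held 0 over the 50% of spots richest in cardiomyocyte markers, at -0.29 (-0.65 to 0.06), and over the 50% lowest in erythroid UMIs, at -0.31 (-0.66 to 0.03). Of the 6 genes, Nrn1 and Tnfrsf12a were the ones with at least 325 UMIs in the control heart.

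**Figure D1:**
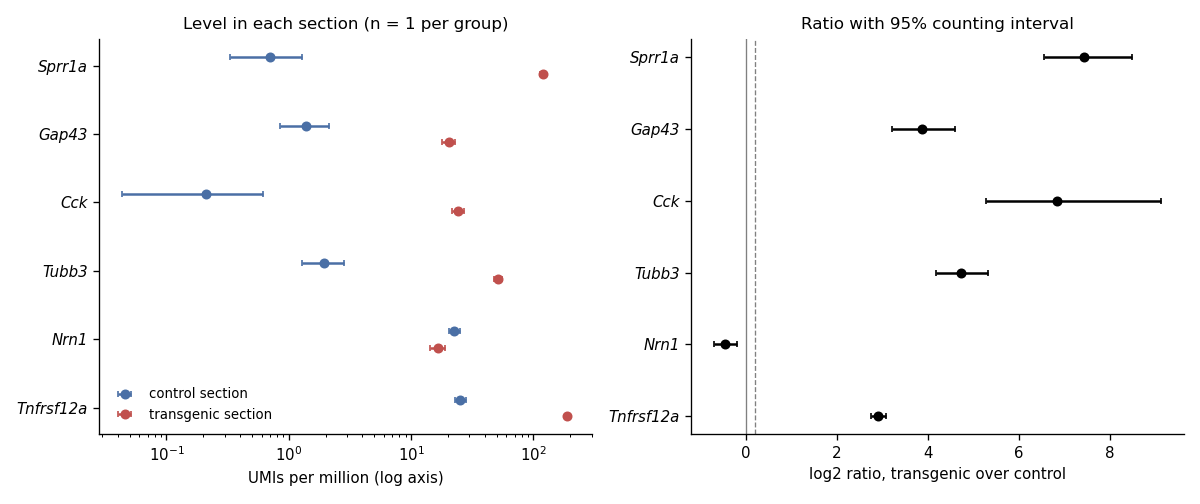
CPM of the 6 genes in the control and transgenic sections (left, log axis) and their log2 ratios (right), as points with 95% counting intervals, 1 section per group. The solid line marks 0 and the dashed line the median of all genes at 0.20; Nrn1 is the only gene of the 6 to the left of both lines, and Sprr1a lies farthest to the right at 7.43.

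The gap between sections was set against the spread inside each section by splitting each into 4 quadrants at the median row and column of its spots. The transgenic quadrants of Sprr1a lay from 41.7 to 238.1 CPM and the control quadrants from 0.532 to 0.833 CPM. Gap43 ran from 4.94 to 44.9 CPM against 1.11 to 1.60 CPM, Cck from 12.3 to 45.4 CPM against at most 0.293 CPM, and Tubb3 from 27.5 to 62.4 CPM against 1.17 to 2.66 CPM. Tnfrsf12a was the most even in the transgenic section, from 169.1 to 213.7 CPM against 21.6 to 30.3 CPM. For these 5 genes the lowest transgenic quadrant was above the highest control quadrant, which held for 30.4% of the 15236 genes. Nrn1 overlapped, from 7.97 to 35.7 CPM in the transgenic and from 7.61 to 53.8 CPM in the control section. None of the 6 lay wholly below the control quadrants, as 13.1% of all genes did.

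The share of spots with at least 1 UMI was 0.796% (0.382 to 1.46) of control and 44.9% (41.7 to 48.2) of transgenic spots for Sprr1a. Tubb3 was found in 2.15% and 42.3% of spots, Cck in 0.239% and 20.8%, and Gap43 in 1.59% and 17.0%. Tnfrsf12a was found in 24.2% and 85.5%, and Nrn1 in 18.6% and 17.7%. Transgenic spots were deeper, so the shares were repeated with 8134 UMIs drawn from each spot; 140 control and 78 transgenic spots were too shallow for this. The transgenic shares were then 36.2% for Sprr1a, 31.3% for Tubb3, 15.7% for Cck, 11.1% for Gap43, 75.8% for Tnfrsf12a and 11.1% for Nrn1, and the control shares were 0.717%, 1.79%, 0.179%, 0.896%, 18.3% and 14.0%. The share of Nrn1 stayed a little lower in the transgenic section, and those of the other 5 genes stayed far higher there.

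Where a gene was found, its counts were piled up to different degrees. A single transgenic spot held up to 25 UMIs of Sprr1a, 13 of Tnfrsf12a, 8 of Cck, 8 of Tubb3, 7 of Gap43 and 5 of Nrn1, whereas no control spot held more than 1 UMI of Sprr1a, Gap43 or Cck. The richest 10% of transgenic spots (92 spots) held 57.3% of the Sprr1a UMIs and 26.2% of the Tnfrsf12a UMIs. The same share was 75.2% for Gap43, 67.8% for Cck, 66.4% for Nrn1 and 45.1% for Tubb3. It is bound to be high for a gene found in few spots. In thinned spots the variance over the mean, which is 1 for counting error alone, was 3.62 for Sprr1a, 1.62 for Gap43, 1.43 for Cck, 1.25 for Tubb3 and 1.15 for Tnfrsf12a in the transgenic section. Nrn1 was at 1.38 in the transgenic and 1.33 in the control section, so its counts were uneven in both.

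Moran's I, a score deposited by the authors that is near 0 for a scattered gene and nears 1 where neighboring spots are alike, was highest for Sprr1a. In the transgenic section it was 0.556 for Sprr1a (rank 96 of 12441 genes with at least 20 UMIs there), 0.326 for Gap43, 0.252 for Cck, 0.227 for Tubb3, 0.162 for Nrn1 and 0.156 for Tnfrsf12a, against a median of 0.0198. In the control section 5 of the 6 genes lay between -0.00783 and 0.00306. Of these, Sprr1a, Gap43, Cck and Tubb3 had at most 28 UMIs there, too few for the score to show a pattern. Nrn1 was at 0.240 there, the rank 15 of 12242 genes, and at rank 908 in the transgenic section, so it was among the most regional genes of the control heart.

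Nrn1 occupied 1 side of the control section. Its upper right quadrant was at 53.8 CPM (46.6 to 61.7) and held 202 of its 325 UMIs, while the lower right was at 18.0 CPM, the lower left at 8.89 CPM and the upper left at 7.61 CPM. In the transgenic section its lower right quadrant was the highest at 35.7 CPM (29.2 to 43.3), and the lower left the lowest at 7.97 CPM. The 2 sections were not aligned to each other, so quadrants of the same name need not be the same wall of the heart. No gene tracked Nrn1 closely over the control spots, where the highest Pearson r among 7220 genes was 0.118, for Lrtm1.

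Sprr1a, Gap43 and Cck were highest in the upper right quadrant of the transgenic section, at 238.1 CPM (222.2 to 254.9), 44.9 CPM (38.1 to 52.5) and 45.4 CPM (38.6 to 53.1). Tubb3 was low only in the lower left quadrant, at 27.5 CPM (22.3 to 33.4), and lay between 58.8 and 62.4 CPM in the other quadrants. The upper right quadrant was also the highest for Nppa, at 27342 CPM, and for Col1a1, at 1485 CPM. Spots at the tissue edge were lower than interior spots in Sprr1a, with 70.9 CPM against 139.0 CPM, and in Gap43, with 13.2 against 23.0 CPM, so these counts were not gathered at the border of the tissue.

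**Figure D2:**
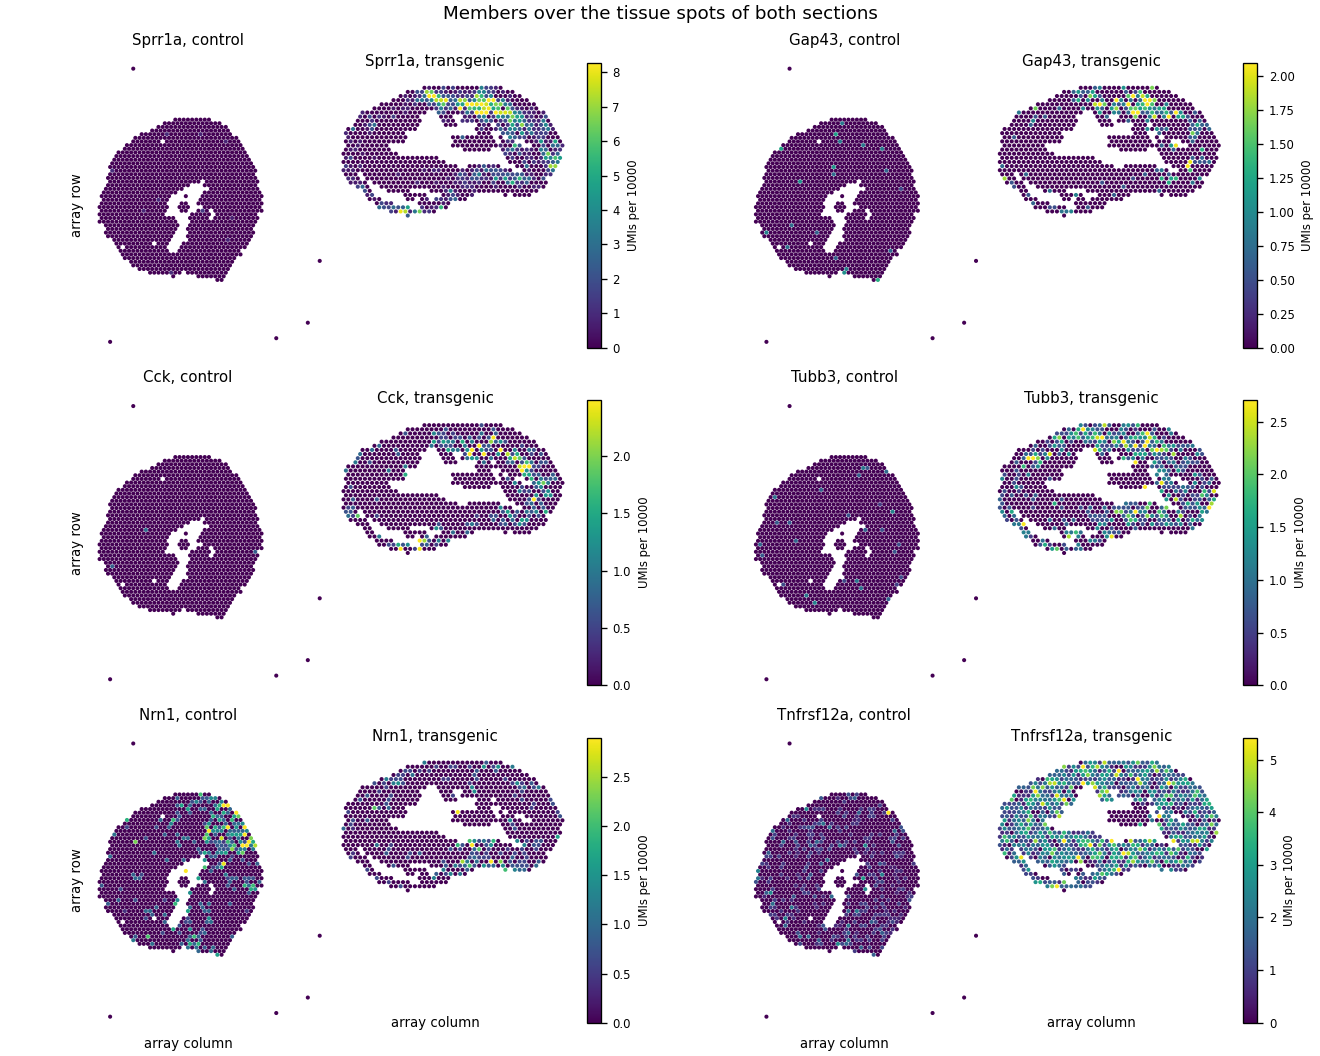
Each spot over tissue at its array column and row, colored by UMIs per 10000 of a gene (the highest 0.5% of spots over both sections share the top color), control on the left and transgenic on the right of each pair, 1 section each. Sprr1a and Gap43 share a bright band along the upper right wall of the transgenic section, Tnfrsf12a is found over most of the transgenic section, and Nrn1 is bright at the upper right of the control section; the few lone spots far from the tissue held 1 UMI of the 6 genes in all.

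How the 6 genes lay relative to each other in the transgenic section was described with Pearson r of log(1 + UMIs per 10000) over its 923 spots with UMIs. Spots of a section share library, depth and neighbors, so r is a description and carries no p. Sprr1a, Gap43, Cck and Tubb3 went together: r was 0.51 for Sprr1a with Gap43, 0.42 for Sprr1a with Tubb3, 0.34 for Sprr1a with Cck, 0.25 for Gap43 with Tubb3, and 0.19 for Cck with Gap43 and with Tubb3. All 9 pairs with Nrn1 or Tnfrsf12a lay between -0.05 and 0.10. The r of a gene with the mean of the other gene over the adjacent spots, which shares no spot, was averaged over both directions. It was 0.55 for Sprr1a with Gap43, 0.49 with Tubb3 and 0.41 with Cck. A mean over several spots enters here, so these values cannot be compared in size with those of the same spot.

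With thinned spots r was lower, at 0.40 for Sprr1a with Gap43, 0.30 for Sprr1a with Tubb3 and 0.25 for Sprr1a with Cck. It was 0.22 for Gap43 with Tubb3, 0.15 for Cck with Tubb3 and 0.14 for Cck with Gap43. The thinned spots were also counted by the genes they held. Of the 94 spots with Gap43, 72 also held Sprr1a (76.6%), while Sprr1a was found in 36.2% of all 846 thinned spots. Of the 133 spots with Cck, 81 held Sprr1a (60.9%), and of the 265 spots with Tubb3, 142 held Sprr1a (53.6%). Gap43 was found in 4.07% and Cck in 9.63% of the spots without Sprr1a. Of the 846 spots, 369 held none of these 4 genes, 252 held 1, 145 held 2 and 80 held 3 or 4.

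The 80 spots with 3 or 4 of the genes were not spread evenly: they made up 20.5% of the upper right, 8.56% of the lower right, 6.35% of the upper left and 2.44% of the lower left quadrant. From the spots with none of the 4 genes to those with 3 or 4, mean thinned UMIs per spot went from 109.7 to 252.8 for Nppa and from 6.11 to 13.3 for Col1a1, and from 69.5 down to 46.4 for Myh7. Tnfrsf12a stayed between 1.46 and 1.58 UMIs per spot over all 4 classes of spots, and Nrn1 was at 0.146, 0.163, 0.117 and 0.1.

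Since Sprr1a, Cck and Tubb3 had high ratios and went together in the transgenic section, the sequences before their starts are shown, with that of Tnfrsf12a, which did not go with them. RefSeq promoters in build GRCm38.p6 were found for these 4 of the 6 genes, and not for Gap43 or Nrn1. The labels name GRCm39 for the authors' processing, so the positions below belong to another build than the files. Each run is the 250 bases before the annotated start, 5′ to 3′ on the strand of the gene, and capitals mark every match on either strand to TGANTCA (the AP-1 motif), TGACGTCA (CRE), the CArG box, GGAATG (TEAD), CACCC or TATAAA.
Sprr1a, chr3:92485882-92486131, minus strand: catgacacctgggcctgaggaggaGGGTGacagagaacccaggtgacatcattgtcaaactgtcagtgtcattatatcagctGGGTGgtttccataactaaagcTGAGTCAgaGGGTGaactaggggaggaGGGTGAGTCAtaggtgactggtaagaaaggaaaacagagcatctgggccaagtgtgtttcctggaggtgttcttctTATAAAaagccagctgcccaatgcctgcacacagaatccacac
Cck, chr9:121495695-121495944, minus strand: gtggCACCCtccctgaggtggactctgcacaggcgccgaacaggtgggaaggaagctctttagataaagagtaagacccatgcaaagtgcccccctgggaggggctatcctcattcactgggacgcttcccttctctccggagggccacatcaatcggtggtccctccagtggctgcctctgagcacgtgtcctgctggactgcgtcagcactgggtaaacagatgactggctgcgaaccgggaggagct
Tubb3, chr8:123411303-123411552, plus strand: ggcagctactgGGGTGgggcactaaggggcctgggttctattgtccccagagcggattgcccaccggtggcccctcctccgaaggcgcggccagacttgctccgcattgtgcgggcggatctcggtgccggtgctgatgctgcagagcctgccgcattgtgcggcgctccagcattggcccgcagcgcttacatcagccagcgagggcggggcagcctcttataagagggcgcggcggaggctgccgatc
Tnfrsf12a, chr17:23677450-23677699, minus strand: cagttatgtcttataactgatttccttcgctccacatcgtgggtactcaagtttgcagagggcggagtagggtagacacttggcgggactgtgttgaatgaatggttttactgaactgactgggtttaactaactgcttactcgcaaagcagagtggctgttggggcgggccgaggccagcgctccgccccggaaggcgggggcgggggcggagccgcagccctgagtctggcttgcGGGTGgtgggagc

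The Sprr1a window held the AP-1 letters 2 times, both as TGAGTCA, starting 146 and 116 bases before the start, and TATAAA 43 bases before it. The match at 116 shares 2 letters with a CACCC match on the other strand, so their capitals run on. Of the 32851 promoters of the table, 6.75% held the AP-1 letters at least 1 time and 0.338% at least 2 times, and 12.4% held TATAAA. The Cck, Tubb3 and Tnfrsf12a windows held none of the 6 motifs other than CACCC, which 52.0% of all promoters held. Sprr1a had no CpG dinucleotide in its 250 bases, Cck 9, Tnfrsf12a 15 and Tubb3 21, against a median of 6. Sprr1a, Cck and Tubb3 thus did not share a motif of this set beyond CACCC in these windows, and Gap43 could not be examined.

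Nppa, the atrial natriuretic peptide that stressed ventricles make, Myh7, the slow myosin heavy chain of the fetal mouse ventricle, and Col1a1, a chain of fibrillar collagen made by fibroblasts, were the 3 reference genes for position. Sprr1a had r of 0.48 with Nppa, 0.45 with Col1a1 and -0.13 with Myh7. Gap43 had 0.27, 0.30 and -0.18, Tubb3 0.33, 0.32 and -0.07, and Cck 0.26, 0.25 and -0.02 in the same order. Tnfrsf12a had 0.18 with Nppa, 0.05 with Col1a1 and 0.26 with Myh7, and Nrn1 stayed between 0.03 and 0.09. With thinned spots the values with Myh7 were -0.36 for Sprr1a, -0.31 for Gap43 and -0.22 for Tubb3, and the values of Tnfrsf12a with Nppa and Myh7 were 0.0340 and 0.0225. In the control section the 18 values lay between -0.05 and 0.11. Sprr1a, Gap43, Cck and Tubb3 had 3 to 28 UMIs there. At such counts r is bound to be near 0, so it cannot show whether they were co-located in control tissue.

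Ordering the transgenic spots by a reference gene and pooling them in quartiles shows the size of this. From the lowest to the highest quartile of Nppa, Sprr1a went from 15.9 CPM (11.6 to 21.3) to 247.8 CPM (231.8 to 264.8), a ratio of 15.6 (11.5 to 21.5). The ratio was 9.53 (5.16 to 19.6) for Gap43, 8.98 (5.09 to 17.3) for Cck, 4.52 (3.33 to 6.26) for Tubb3, 1.27 (0.818 to 2.00) for Nrn1 and 1.16 (1.03 to 1.30) for Tnfrsf12a. Over quartiles of Col1a1 the ratio was 13.5 (10.1 to 18.6) for Sprr1a, 11 (5.81 to 23.6) for Cck, 4.03 (2.99 to 5.54) for Tubb3 and 0.9 (0.802 to 1.01) for Tnfrsf12a. Gap43 had 3 UMIs in the lowest Col1a1 quartile and 142 in the highest, a ratio of 41.1 (13.8 to 201.8).

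Against Myh7, Sprr1a, Gap43, Cck and Tubb3 were highest in the lowest quartile, and none declined steadily over the 4 quartiles. The lowest Myh7 quartile held 812 of the 1552 Sprr1a UMIs, at 260.6 CPM (243.0 to 279.2), and the next 3 quartiles lay at 66.2, 88.3 and 70.5 CPM. Gap43 was at 51.7 CPM (44.0 to 60.3) in the lowest quartile and between 8.85 and 12.4 CPM in the others, and Tubb3 at 88.3 CPM (78.1 to 99.3) and between 38.9 and 40.9 CPM. Cck was at 36.9 CPM (30.5 to 44.3) and between 15.3 and 24.0 CPM. The lowest Myh7 quartile still had 3778 CPM of Myh7, so these spots were low in Myh7 for the transgenic section and not at the level of the control section, where Myh7 was at 33.6 CPM. Nrn1 went the other way over the quartiles of Myh7, from 12.5 to 13.7, 17.1 and 22.8 CPM, a ratio of 1.82 (1.22 to 2.76) of the highest to the lowest.

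**Figure D3:**
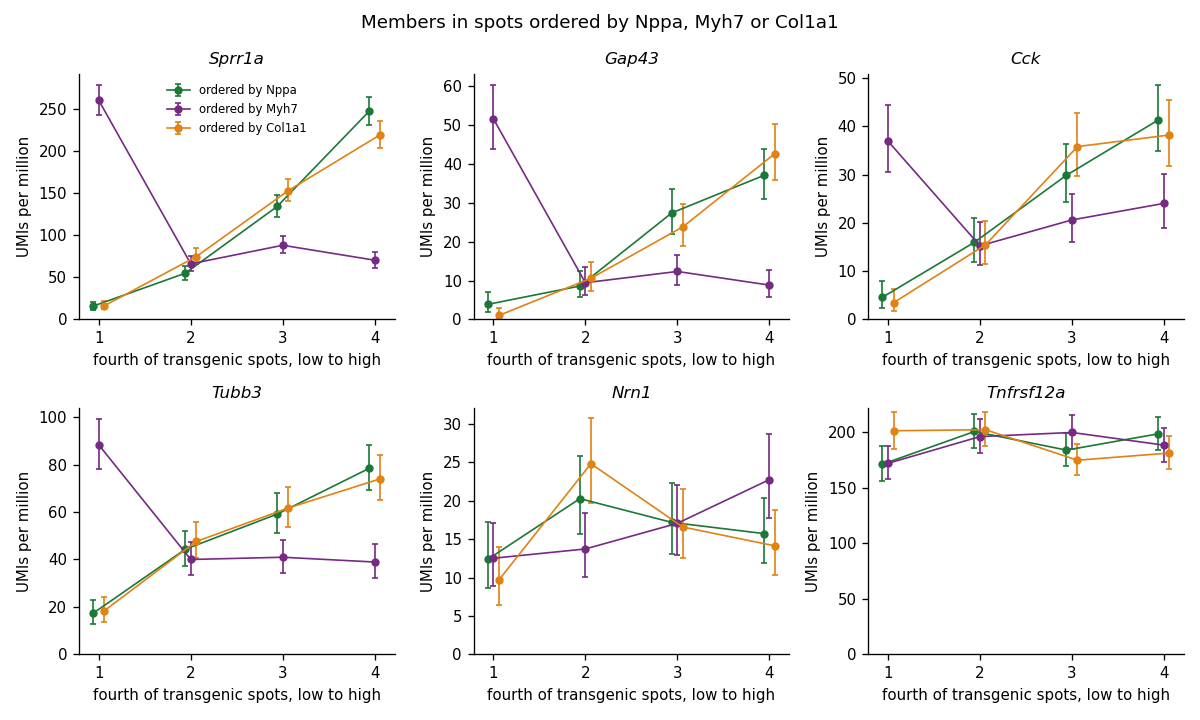
Pooled CPM of each gene in quartiles of the transgenic spots ordered from low to high Nppa, Myh7 or Col1a1, with 95% Poisson intervals for counting error. Sprr1a reaches 247.8 in the highest Nppa quartile and 260.6 in the lowest Myh7 quartile, whereas Tnfrsf12a stays between 171.3 and 202.4 in every quartile.

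Splitting spots at the medians of 2 reference genes at a time separated them further. Sprr1a was at 294.7 CPM (276.1 to 314.1) in the 205 spots high in Nppa and low in Myh7, at 105.3 CPM where both were high, at 46.9 CPM where Nppa was low and Myh7 high, and at 27.8 CPM where both were low. Gap43 was at 54.5 CPM (46.7 to 63.3), 13.3, 7.30 and 5.62 CPM in the same classes, and Tubb3 at 95 CPM (84.6 to 106.3), 46.7, 31.3 and 32.2 CPM. With Nppa and Col1a1 as the pair, Sprr1a was at 233.2 CPM where both were high, 103.3 CPM where only Nppa was high, 74.2 CPM where only Col1a1 was high and 18.4 CPM where both were low, so each reference gene went with more Sprr1a at either level of the other. Tnfrsf12a stayed between 173.9 and 218.0 CPM over all these classes of spots.

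The genes whose pattern was most like each of the 6 were ranked by r over the transgenic spots among 7589 genes with at least 200 UMIs there. For Sprr1a these were Clu (0.57), a secreted chaperone, the matrix genes Postn (0.56), Thbs4 (0.53) and Comp (0.51), and Gap43 (0.51), and the least alike were Ech1 (-0.39), an enzyme of fatty acid oxidation, and the mitochondrial creatine kinase Ckmt2 (-0.36). For Gap43 they were Sprr1a (0.51), the smooth muscle calponin Cnn1 (0.42), Ltbp2 (0.39), Thbs4 (0.37) and Postn (0.36), with Ech1 (-0.26) and Acaa2 (-0.24) at the other end. Nppa had rank 10 and Col1a1 rank 22 in the list of Sprr1a, so several matrix genes stood ahead of both reference genes.

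For Cck the nearest were the matrix genes Comp (0.50) and Prelp (0.40), Clu (0.38), Ccn5 (0.35) and Serpinf1 (0.35), and the least alike were Ckmt2 (-0.33) and Cox7a1 (-0.26). For Tubb3 they were Postn (0.44), Sprr1a (0.42), Clu (0.39), Gpx3 (0.37) and Col8a1 (0.36), with Ech1 (-0.23) and Scd4 (-0.21) at the other end. The genes most like these 4 all had high log2 ratios themselves, from 2.19 for Prelp to 7.43 for Sprr1a. The ranking took only genes with at least 200 UMIs in the transgenic section, so it favored genes that are high there. Col8a1, Ccn5, Comp, Cnn1, Thbs4, Gap43, Sprr1a and Ltbp2, with 184, 132, 63, 45, 24, 20, 10 and 10 control UMIs, entered through that section. Of the least alike, Ech1, Ckmt2, Acaa2 and Cox7a1 lay between -2.02 and -1.02. Scd4 was higher in the transgenic section, with 183 and 409 UMIs (1.31). By rank correlation 1 of the 5 for Sprr1a and 2 of the 5 for Gap43 stayed among the first 5, and over interior spots 3 and 4 did.

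Tnfrsf12a had a different set, the muscle genes Hspb7 (0.40), Pdlim5 (0.39), Tnnc1 (0.39) and Csrp3 (0.38) and the glycolytic enzyme Aldoa (0.37). These differed little between the sections, with log2 ratios from -0.21 to 0.32. The least alike were Tent5c (-0.34) and Slc25a37 (-0.33), an iron carrier of red cell precursors. Tnfrsf12a had an r of 0.31 with the UMIs per spot, the highest of the 6 genes, against 0.19 for Sprr1a. Nrn1 had no close match, with Fbxo40 (0.16), Enah (0.16), Fhl2 (0.14), Rem1 (0.13) and Ppp1r16a (0.13) first, values too weak in such sparse counts to name a pattern.

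The summed share of cell type markers was read as well. Activated fibroblast markers had r of 0.57 with Sprr1a, 0.40 with Tubb3, 0.37 with Gap43, 0.34 with Cck, 0.17 with Tnfrsf12a and 0.09 with Nrn1. This list holds Postn, Thbs4, Comp and Col8a1, which the ranking above already named, so its values are not separate from that ranking. Cardiomyocyte markers had r of 0.36 with Tnfrsf12a and between -0.07 and 0.05 with the other 5 genes. Tnfrsf12a also had 0.33 with skeletal muscle, 0.27 with endothelial and 0.26 with smooth muscle and pericyte markers. Of the 3338 transgenic CPM of the skeletal muscle list, Ckm held 1778 and Acta1 1512. Myh1, Myh2 and Myh4 of that list had 6, 2 and 2 transgenic UMIs. Cd36 and Fabp4 held 2041 and 983 of the 3892 transgenic CPM of the endothelial list. The r with marker lists was not recomputed with thinned spots or in the 50% of spots lowest in erythroid UMIs. In those 2 settings r of Tnfrsf12a with Myh7 was 0.0225 and 0.0198, against 0.26 over all spots. Of the 9 cardiomyocyte markers, 5 had a log2 ratio of at most -1, as 5.61% of all genes did. Their share of UMIs is thus no count of cardiomyocytes, and which cells made the 6 genes was not tested. Erythroid markers had negative values with all 6 genes, from -0.09 for Nrn1 to -0.28 for Tnfrsf12a. All 10 activated fibroblast markers were measured, 9 had a log2 ratio of at least 1, as 13.7% of all genes did, and they summed to 387.0 CPM of control and 1957 CPM of transgenic UMIs. What part these cells had in the counts of the 4 genes was not tested. Over the 50% of spots with the largest share of cardiomyocyte markers, taken in each section, the log2 ratio was 5.37 for Sprr1a and 2.19 for Gap43, both lower than over all spots, and 3.22 for Tnfrsf12a.

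**Figure D4:**
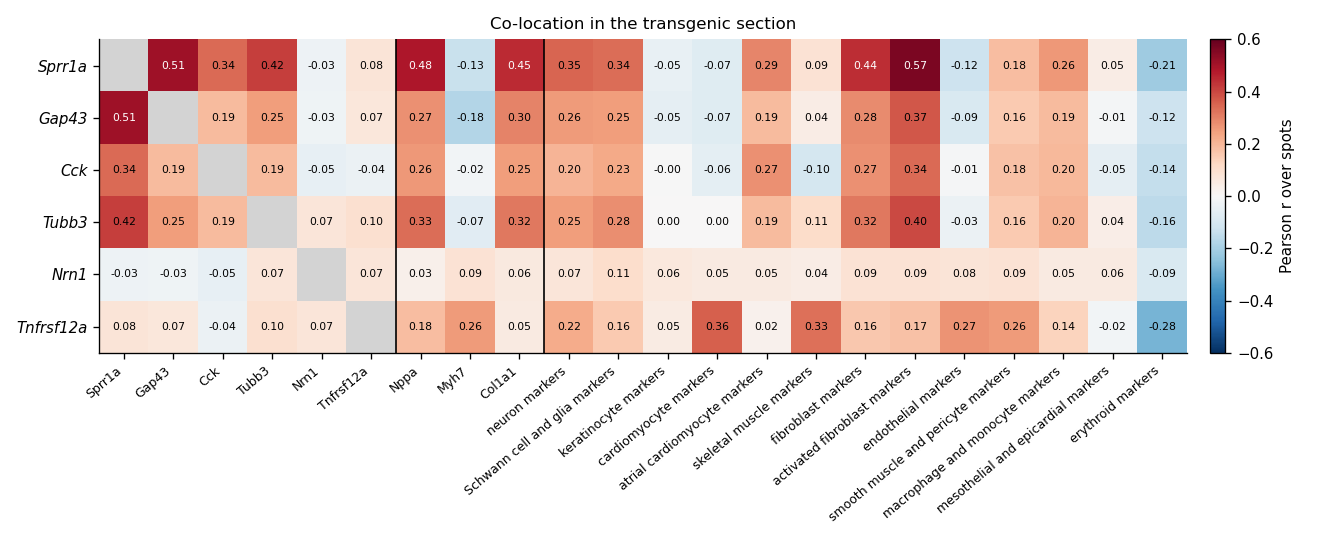
Pearson r over the 923 transgenic spots of each of the 6 genes (rows) with the other genes of the set, with Nppa, Myh7 and Col1a1, and with the summed share of each list of cell type markers (columns, color scale from -0.6 to 0.6). Sprr1a, Gap43, Cck and Tubb3 are red together and with activated fibroblast markers, up to 0.57. Tnfrsf12a has its highest values, 0.36 and 0.33, with cardiomyocyte and skeletal muscle markers. The skeletal muscle sum is mostly Ckm and Acta1, and r with the marker lists was not recomputed with thinned spots.

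Because 5 of the genes are best known from nerves or skin, the markers of those tissues were read next. The 24 neuron markers in the tables summed to 181.9 CPM of control and 637.7 CPM of transgenic UMIs, and their summed share had r of 0.35 with Sprr1a, 0.26 with Gap43, 0.25 with Tubb3, 0.22 with Tnfrsf12a, 0.20 with Cck and 0.07 with Nrn1. Of the 18 with at least 20 UMIs, 10 had a log2 ratio of at least 1 (9 with TMM scaling) and none of at most -1 (1 with TMM scaling), with a median of 1.14, where 13.7%, 5.61% and 0.20 were found over all genes. Under TMM scaling, another way to set the total of a section, 10.6% of all genes had at least 1 and 7.93% at most -1. Of the 24 neuron markers in the tables, 19 had under 50 UMIs in each section. Syt1, a synaptic vesicle protein, had 12 control and 11 transgenic UMIs, Dbh, which makes noradrenaline, 9 and 8, and Chat, which makes acetylcholine, 8 and 7. Snap25 had 1 and 21 UMIs, Th 11 and 33, Prph 13 and 27, and Phox2a 7 and 36. Map2 had 53 and 108 (1.18, 0.69 to 1.68), Nefm 8 and 22, Slc18a2 14 and 27, and Elavl3 7 and 15. Nefl had 17 and 8 UMIs, and the interval of its log2 ratio of -0.94 (-2.36 to 0.35) holds 0. Elavl4 had 13 and 3, under the limit of 20 UMIs over both sections. Ret had 103 and 52 (-0.84, -1.35 to -0.34).

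Uchl1 and Hand2 stood apart in that list. Uchl1, a ubiquitin hydrolase abundant in neurons, had 142 control and 3349 transgenic UMIs (log2 4.71, 4.47 to 4.96). Hand2, a transcription factor also of heart muscle, had 2040 and 4372 (log2 1.25). Over transgenic spots Uchl1 had r of 0.48 with Sprr1a, 0.33 with Tubb3, 0.32 with Gap43 and 0.26 with Cck. Without Uchl1 and Hand2, which were set aside after their values were seen, the other 22 neuron markers summed to 30.1 control and 41.6 transgenic CPM and had r of at most 0.14 with any of the 6 genes. Taking out the markers with the most UMIs was bound to lower the sum. The 22 left had 539 transgenic UMIs over 923 spots, and such sparse counts hold r down, so r cannot show whether they were co-located. Of the 10 markers with a log2 ratio of at least 1, 7 had under 50 UMIs in each section.

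The 17 markers of Schwann cells and other glia, the supporting cells of nerves, summed to 156.6 control and 688.4 transgenic CPM, with r of 0.34 with Sprr1a, 0.28 with Tubb3, 0.25 with Gap43, 0.23 with Cck, 0.16 with Tnfrsf12a and 0.11 with Nrn1. Of the 15 with at least 20 UMIs, 4 had a log2 ratio of at least 1 and none of at most -1, beside 13.7% and 5.61% of all genes, and the median was 0.38. The 4 were Ncam1, Ngfr (17 and 48 UMIs, 1.65), a neurotrophin receptor, Pmp22 (977 and 2625, 1.58), a myelin protein that other cells make as well, and the sodium channel gene Scn7a (151 and 388, 1.51). Prx had 31 and 52 UMIs (0.90) and S100b 50 and 79 (0.81). Mbp, a protein of myelin, had 67 control and 53 transgenic UMIs. Sox10, a transcription factor of glia, had 29 and 21, and Gfap had 0 and 2. Erbb3 was lower, with 269 and 181 UMIs (-0.42, -0.70 to -0.14), and Kcna1 had 35 and 18. Ncam1, an adhesion molecule of nerve and of other cells, had 159 and 4999 UMIs (log2 5.12, 4.90 to 5.36) and an r of 0.37 with Sprr1a and 0.31 with Tubb3. Without Ncam1 and Pmp22, again set aside with their values known, the other 15 summed to 77.6 and 99.8 CPM and had r of at most 0.17 with the 6 genes. The same limit holds here, as the 2 markers with the most transgenic UMIs were taken out and the 15 left had 1293. Both whole lists were thus higher in the transgenic section, and the part of nerve tissue in the counts of the 6 genes was not tested.

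**Figure D5:**
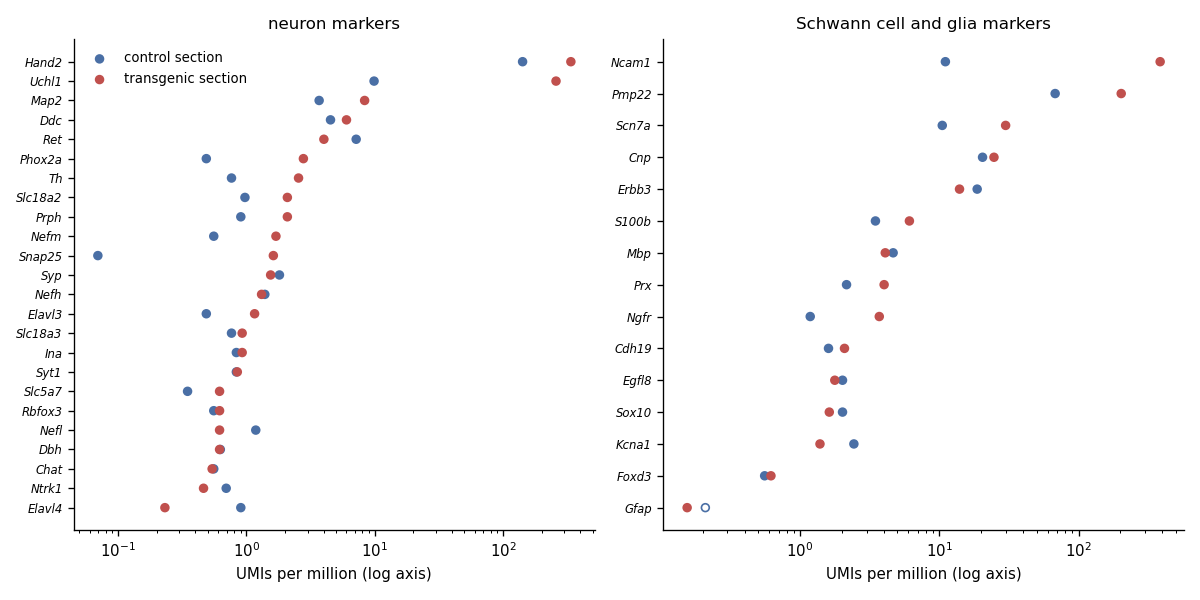
CPM (log axis) of the neuron markers (left) and of the Schwann cell and glia markers that are reported by name (right) in the control and transgenic sections, 1 section each; the open circle is a count of 0 drawn at 3 counts. Uchl1 and Ncam1 have log2 ratios of 4.71 and 5.12, and 19 of the 24 neuron markers have under 50 UMIs in each section.

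The 11 keratinocyte markers summed to 32.1 control and 42.5 transgenic CPM, and their summed share had r between -0.05 and 0.06 with the 6 genes. Of the 6 with at least 20 UMIs, 1 had a log2 ratio of at least 1, Trp63 (23 and 106 UMIs, 2.35), a transcription factor of basal keratinocytes, beside 13.7% of all genes. Perp had 165 and 239 UMIs (0.68), Krt10 168 and 118 (-0.36) and Sfn 57 and 48 (-0.10). The basal keratins were low, with 10 control and 4 transgenic UMIs of Krt5 and 8 and 13 of Krt14, and Krt15 and Col17a1 had none in either section. The relatives of Sprr1a had few counts: the other 10 small proline-rich genes in the tables had 1 to 18 UMIs per section. Sprr3 had 6 and 18, Sprr2f 7 and 16, Sprr2k 18 and 8, and Sprr4 9 and 2. Of the structural proteins of the cornified envelope, Lor had 16 and 23 UMIs, Ivl 6 and 6, and Flg 23 and 9. Of the 7 genes of this family and envelope list measured beside Sprr1a, 2 had a log2 ratio of at least 1. Another 2 had at most -1, beside 13.7% and 5.61% of all genes. Sprr1b, the nearest relative by name, had 3 and 4 UMIs, and no difference was detectable at that depth.

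Atrial markers were read because Nppa is an atrial gene, and 3 of the 7 measured had a log2 ratio of at least 1 and none of at most -1, beside 13.7% and 5.61% of all genes. These were Dkk3 (57 and 947 UMIs, 3.96 and 73.1 CPM), the atrial light chain Myl7 (125 and 409, 1.86) and Myl4 (158 and 328, 1.20), while the potassium channel gene Kcna5 had 260 and 144 (-0.70), Stard10 366 and 244 (-0.43), Sln 16 and 10 and Bmp10 9 and 9. The summed share of the list had r of 0.29 with Sprr1a, 0.27 with Cck, 0.19 with Gap43 and Tubb3, 0.05 with Nrn1 and 0.02 with Tnfrsf12a. Without Dkk3, set aside with its value known, the other 7 summed to 65.9 control and 89.4 transgenic CPM. Their r was 0.20 with Sprr1a, 0.15 with Cck and Tubb3, 0.13 with Gap43, 0.07 with Nrn1 and 0.03 with Tnfrsf12a. The part of atrial tissue in the counts was not tested.

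Of the proteins that work beside Gap43 in the growth cone, 7 of the 12 measured had a log2 ratio of at least 1 and none of at most -1, with a median of 1.01, against 13.7%, 5.61% and 0.20 over all genes. With TMM scaling 5 of them had at least 1, as 10.6% of all genes did, because Marcks (1.02) and Dpysl2 (1.01) lay near the limit. Dpysl3, a collapsin response mediator, went from 778 to 5001 UMIs (log2 2.83), Marcksl1 from 399 to 1935 (2.43), Dpysl5 from 16 to 42 (1.54), Stmn2 from 121 to 257 (1.24) and Basp1 from 152 to 320 (1.22). Dpysl4 was lower, with 175 and 103 UMIs (-0.61), and Crmp1, Stmn3 and Stmn4 were at 15 to 21 UMIs in each section. Dpysl3 had an r of 0.28 with Sprr1a and 0.15 with Gap43 over transgenic spots, and Marcksl1 0.02 and 0.05.

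Of the 8 β-tubulins listed, 6 were in the data, and Tubb3 had the highest ratio of these. Tubb2b, a tubulin of developing neurons, had 78 and 817 UMIs (log2 3.54), Tubb1 32 and 73 (1.34) and Tubb2a 1104 and 2319 (1.22). Tubb4b was lower, with 4542 and 2126 UMIs (-0.94), and Tubb6 had 509 and 376 (-0.29). The 5 genes other than Tubb3 summed to 435.8 control and 440.9 transgenic CPM, so the summed level of these 5 was alike while its composition differed. Tubb3 came on top of this sum, at 1.95 control and 51.6 transgenic CPM. Tubb2b had an r of -0.03 with Tubb3 over transgenic spots.

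The partners of Cck were close to uncounted. Its receptors Cckar and Cckbr had 4 and 8 control and 8 and 10 transgenic UMIs, and the related hormone Gast had 10 and 11. Pcsk1 and Pcsk2, the convertases that cut prohormones in endocrine cells, had 2 UMIs each in the control and 1 each in the transgenic section. Enzymes of wider use were well counted: Pam, which amidates peptides, had 5158 and 8938 UMIs (log2 0.94), Cpe 1635 and 2487 (0.76) and Furin 1391 and 2578 (1.04). Of the 10 measured processing genes 3 had a log2 ratio of at least 1 (Chgb, Qpct and Furin), and 1 did with TMM scaling, beside 13.7% and 10.6% of all genes. Among 20 other measured neuropeptides the median log2 ratio was 0.15 and 3 reached 1, close to the 0.20 and 13.7% of all genes. The highest was Adm (164 and 751 UMIs, 2.35), followed by Nts (41 and 93) and Ucn (21 and 41).

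Nrn1l, the relative of Nrn1, had 31 and 18 UMIs, and the interval of its log2 ratio of -0.63 (-1.56 to 0.25) holds 0. For Tnfrsf12a, its ligand gene Tnfsf12 had 408 control and 605 transgenic UMIs (log2 0.72, 0.54 to 0.90), and its r with the receptor over spots was -0.01. Of the other 18 genes of the TWEAK and noncanonical NF-κB pathway, 4 had a log2 ratio of at least 1 (Cd163, Nfkbia, Traf5 and Ikbkb, at 1.28, 1.10, 1.09 and 1.04) and none of at most -1, with a median of 0.50, but 1 reached 1 with TMM scaling. These counts lay on either side of the shares of all genes, 13.7% and 10.6% with TMM scaling, and are no result about the pathway. The kinase Map3k14 had 96 and 159 UMIs (0.88), and the factors Nfkb2 679 and 652 (0.09) and Relb 315 and 240 (-0.24). Among the other 23 measured TNF receptors, 9 reached 1 (6 with TMM scaling) and none -1, beside 13.7% (10.6%) and 5.61% of all genes, and Tnfrsf12a had the highest ratio of the family, ahead of Tnfrsf11b (1.93), Tnfrsf23 (1.74) and Ngfr (1.65).

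Genes known to be induced after nerve injury were read as a list, which was chosen with results of these data known. Without the 6 genes, 19 of its 42 measured genes had a log2 ratio of at least 1, 1 had at most -1, and the median was 0.83, beside 13.7%, 5.61% and 0.20 over all genes. Among the highest were Serpina3n (34 and 1917 UMIs, 5.97), a protease inhibitor, and Timp1 (27 and 686, 4.82), an inhibitor of matrix proteases. The transcription factors Atf3 (115 and 619, 2.58), Cebpd (279 and 1479, 2.56), Klf6 (692 and 1889, 1.60) and Sox11 (19 and 37, 1.11) were higher, Jun was at 0.82, and the chaperone Hspb1 was at 1.70. The stretch-responsive Ankrd1, a muscle gene as well, went from 12351 to 142771 UMIs (3.68).

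Other members of that list did not go that way. Gfra1, a receptor of glial cell line-derived neurotrophic factor, had 188 control and 32 transgenic UMIs (-2.40), and its partner Ret 103 and 52 (-0.84). Gadd45a was at -0.78 and Cacna2d1 at -0.62. The nerve injury peptides Gal (18 and 12 UMIs), Vip (8 and 9) and Npy (16 and 16) stayed at a few UMIs in both sections, as did Arg1 (12 and 10). Over the transgenic spots Serpina3n went with Sprr1a (r of 0.48), Gap43 (0.35), Cck (0.35) and Tubb3 (0.29), while Atf3 had r of at most 0.05 with these 4 genes and 0.13 with Tnfrsf12a.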

How the data were processed

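FFPE heart sections cut at 5 μm were assayed with Visium CytAssist. The authors ran Space Ranger 2.0.0 and deposited a matrix of UMI counts, not normalized, and a Moran's I score for each gene, which was used as given. Per the labels the build was GRCm39; the probe set is not given in the sources used here. The sections share 725 spot barcodes, which name array positions.

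UMIs were summed per section and scaled to CPM. Intervals at 95% were exact Poisson for levels, exact conditional binomial for ratios and Clopper–Pearson for shares. A Fisher z interval over spots, which ignores that spots are not independent, served only to sort recomputed values of r. Gene lists used genes with at least 20 UMIs over both sections. Thinning drew 8134 UMIs per spot without replacement. The 6 genes and all lists were chosen with earlier results of these data known. Named genes were the 6, the 3 reference genes, the 5 highest and 2 lowest r of each of the 6, and members of the family, pathway and marker lists; the markers singled out, and the lists without them, were chosen after their values were seen. Endothelial, macrophage, mural, mesothelial and skeletal muscle lists were read as r over spots, in the plot of correlations. Alternatives were TMM factors (edgeR 4.0.16), size factors (DESeq2 1.42.0) in R 4.3.3, leaving out the 50 most abundant genes from the totals, spot filters, thinning and rank correlation. Intervals and Moran's I were tested on simulated data in Python 3.11.15. The deposited p values, the cluster labels and the study's Wilcoxon test over spots were not used, because spots of 1 section are not replicates. Some genes of the lists are not reported here by name; they are part of the counts and sums.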

Additional observations from a re-analysis of the deposited data

How the results depend on the processing

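The signs of the 6 log2 ratios held under every alternative run. The interval of Nrn1 held 0 in the 50% of spots richest in cardiomyocyte markers (-0.29, -0.65 to 0.06) and in the 50% lowest in erythroid UMIs (-0.31, -0.66 to 0.03). TMM factors and DESeq2 size factors lowered the median of all genes by 0.16 and 0.15 on the log2 scale, and every ratio by the same amount. The DESeq2 size factors were 1 for both sections, so that setting compared the unscaled UMI sums. Adding 1 CPM to both sections gave 6.15 for Sprr1a, 3.15 for Gap43, 4.37 for Cck and 4.16 for Tubb3, since it is large beside their control levels. In the 50% of spots richest in cardiomyocyte markers the ratios were 5.37 for Sprr1a, 2.19 for Gap43 and 3.22 for Tnfrsf12a, and the cause was not tested. The count of nerve injury genes with a log2 ratio of at least 1 was 19 of 42, and 18 of 42 with TMM, beside 13.7% and 10.6% of all genes. It was 15 of 26 genes with at least 200 UMIs and 20 of 47 with at least 1 UMI. Over spots it was 17 of 31 in those richest in cardiomyocyte markers, 17 of 35 in those lowest in erythroid UMIs and 20 of 38 away from the edge. The shares of all genes in these last 5 settings were not computed, so the counts cannot be compared with them. Among the pathway lists, TMM took the count from 4 to 1 for TWEAK and from 3 to 1 for prohormone processing.

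Of 90 recomputed values of r with the reference genes, 33 left the interval of the main value. This Fisher z interval treats the 923 spots as independent, which they are not. The counts of 33 and 8 therefore only sort larger from smaller shifts. With thinned spots, r with Myh7 was -0.36 for Sprr1a, -0.31 for Gap43, -0.22 for Tubb3, -0.0947 for Cck and 0.0225 for Tnfrsf12a, r with Nppa was 0.23 for Tubb3 and 0.0340 for Tnfrsf12a, and r with Col1a1 was 0.21 for Gap43, 0.23 for Tubb3 and -0.0666 for Tnfrsf12a. Over interior spots, r with Nppa was 0.58 for Sprr1a, 0.32 for Cck, 0.42 for Tubb3 and 0.11 for Tnfrsf12a, r with Myh7 was -0.23, -0.25 and -0.14 for Sprr1a, Gap43 and Tubb3, and r with Col1a1 was 0.54, 0.38, 0.33 and 0.39 for Sprr1a, Gap43, Cck and Tubb3. In the 50% of spots lowest in erythroid UMIs, Sprr1a had 0.55 with Nppa and -0.33 with Myh7, Gap43 had -0.32 and Tubb3 -0.25 with Myh7, Nrn1 had -0.0546 with Col1a1, and Tnfrsf12a had 0.0398, 0.0198 and -0.11 with Nppa, Myh7 and Col1a1. Spearman rho was 0.50 for Sprr1a with Col1a1, and for Tnfrsf12a 0.11, 0.11 and -0.0276 with Nppa, Myh7 and Col1a1. The causes were not tested. The erythroid spots for the ratios, the control ranking for Nrn1 and Tnfrsf12a and the trimmed marker lists were added after seeing the data.

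No paired analysis was possible because each group has 1 section. Depth limits the control levels of Sprr1a, Gap43, Cck and Tubb3, which rest on 3 to 28 UMIs.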
